A study of Mus musculus with 2 samples.

Results

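The 10 genes described here are commonly read as marks of blood vessels and microglia in the brain, and they were measured in whole brains of mouse embryos. They were picked by symbol out of 37310 genes annotated on the mm9 genome build (GENCODE vM1), and all 10 were found. Cldn5, Pecam1, Kdr, Flt1 and Slc2a1 stand for endothelial cells, Pdgfrb for mural cells, and Csf1r, Cx3cr1, Aif1 and C1qa for microglia. The samples were 2 RNA-Seq libraries, each from the brain of 1 F1 hybrid embryo at embryonic stage E17.5. The BxC library came from an embryo with a C57BL/6J mother and a CastEi/J father, and the CxB library from the reciprocal cross, with a CastEi/J mother and a C57BL/6J father. Both embryos therefore carried 1 set of autosomes of each strain, and the brains were neither treated nor pooled. The methods give the CxB brain as male and name several BxC brains of both sexes without saying which gave the deposited library. Chromosome Y held 1852 reads in BxC and 18212 in CxB, 11.6 times as many after scaling by the library totals, so a difference in sex between the embryos cannot be told apart from the cross in any ratio below. With 1 library per cross there were no replicates, so every value below describes these 2 libraries and no difference between them was tested.

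Brain endothelial cells line the vessels, seal them with tight junctions and form, together with mural cells, the blood-brain barrier. Their growth into the embryonic brain is driven by vascular endothelial growth factor (VEGF) from neural cells, and they recruit pericytes, the mural cells of small vessels, with platelet-derived growth factor (PDGF). Microglia are the resident macrophages of the brain, descend from the yolk sac and depend on signals through the receptor encoded by Csf1r.

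The deposited alignments hold 128944754 reads in BxC and 109719746 in CxB, as sums of a column whose meaning was inferred. Both totals exceed the average number of reads per library that the methods give, and the reason was not tested. Levels are reads over the exons of a gene per kilobase of exon and per 1000000 reads of the library (RPKM), and ratios between the libraries are log2 values of CxB over BxC after scaling by those totals. Both carry exact 95% intervals that cover counting error only, since reads copied during amplification are not independent molecules. Enough reads for a ratio, 100 or more per library, were found for 15427 genes. Their median ratio was -0.001, and the 5th to 95th percentiles ran from -0.29 to 0.28. Ratios of at least 1.5-fold were called, as 169 of these genes were, or 1.1% of them, and the same threshold is used for the 10 genes. Below, a gene is called tested where it was set against this threshold, with no p-value. By its methods the study retained the strand of the RNA, but only 56.4% of exon reads in BxC and 56.9% in CxB lay on the strand opposite to the gene, so reads of both strands were counted together and reads of overlapping antisense genes cannot be told apart.

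The levels of the 10 genes per length kept nearly the same order in both libraries. Slc2a1, which encodes the glucose transporter of the barrier endothelium, was highest, with 60.4 RPKM in BxC and 47.9 in CxB. Cldn5, the claudin of the endothelial tight junction, followed with 17.1 and 18.2 RPKM, and C1qa, a chain of the complement protein C1q, with 6.93 and 8.13. Pdgfrb, Kdr, Csf1r, Pecam1, Flt1 and Cx3cr1 lay between 2.26 and 5.68 RPKM in the 2 libraries. Aif1, which encodes the actin-binding microglial protein Iba1, was lowest, with 0.456 and 0.458 RPKM from 90 and 77 reads. The highest level was 132 times the lowest in BxC (108 to 165) and 105 times in CxB (83.7 to 133). Counted by distinct lines, that is, by each line of the alignment once whatever its number of reads, it was 22.6 and 19.6 times the lowest. More than 1 line can share a start, as Tubb3 shows with 23437 lines over 1868 exon bases in BxC. All genes but Aif1 reached 1 RPKM in both libraries. Distinct lines are scaled by the lines of the library, 36575945 in BxC and 31155725 in CxB, which are fewer than its reads. On that other scale all 10 genes reached 1, which is not the same threshold.

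**Figure D1:**
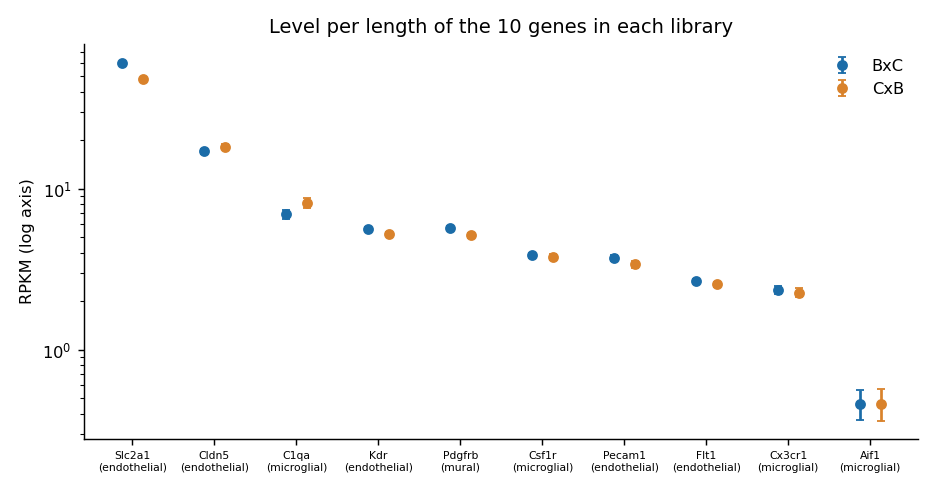
Level of each of the 10 genes in the BxC (blue) and CxB (orange) libraries, in RPKM on a log axis, with exact 95% counting intervals. Slc2a1 stands at 60.4 and 47.9 RPKM and Aif1 at 0.456 and 0.458, and the other genes lie between them.

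Some neighbours in this order were close. In BxC, Kdr stood at 0.985 times the level of Pdgfrb per length (interval 0.945 to 1.03), and in CxB at 1.02 times (0.977 to 1.07), so their order changed between the libraries within counting error. Csf1r stood at 1.03 times Pecam1 in BxC (0.973 to 1.09) and at 1.10 times in CxB (1.03 to 1.18). The other neighbours kept their order in both libraries, with intervals that left out 1. Flt1 over Cx3cr1 was the closest of these, at 1.13 in both libraries (1.06 to 1.21 in BxC and 1.05 to 1.22 in CxB). These orders and intervals hold for the union of annotated exons. Over coding bases alone, Kdr lay above C1qa in BxC (7.09 against 6.59 RPKM) and below it in CxB (6.71 against 7.55). Pecam1 there lay above Csf1r in both, at 5.05 against 4.60 RPKM in BxC and 4.53 against 4.21 in CxB.

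None of the 10 genes reached 1.5-fold between the crosses, against 1.1% of all genes tested. The 9 genes with at least 100 reads in each library had a median ratio of -0.07, and 7 of them were lower in CxB. The interval lay wholly below 0 for 4 of the 9, namely Pecam1, Kdr, Slc2a1 and Pdgfrb, and wholly above 0 for 2, Cldn5 and C1qa. Over all genes tested, 25.8% had an interval wholly below 0 and 25.4% wholly above 0. In these whole brains, fewer cells of a type and less RNA per cell cannot be told apart.

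**Figure D2:**
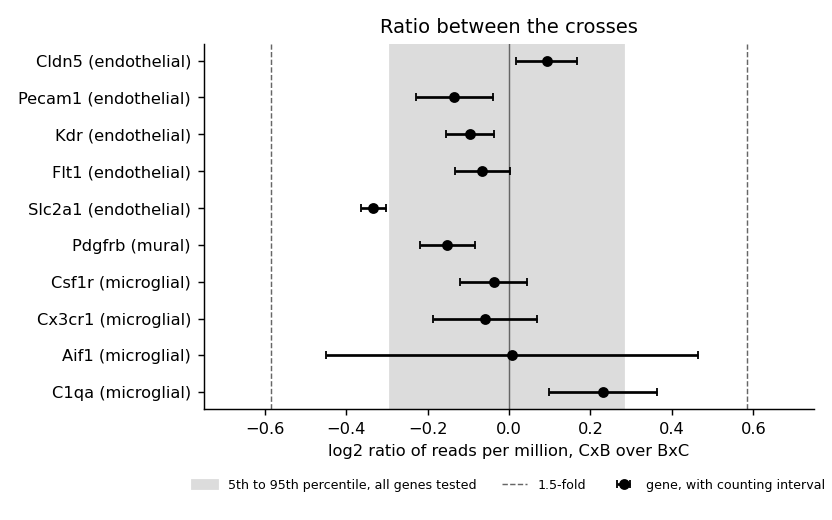
Log2 ratio of reads scaled by library total, CxB over BxC, for each gene with its exact 95% counting interval. The grey band runs from -0.29 to 0.28, the 5th to 95th percentiles of 15427 genes, and the dashed lines mark 1.5-fold: Slc2a1 at -0.33 lies outside the band, and no gene reaches the dashed lines.

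Cldn5 (chr16:18776940-18778353, plus strand) is a gene of 1 exon and 1414 bases. It held 3113 reads in BxC and 2824 in CxB, a ratio of 0.09 (0.02 to 0.17). Its reads were fewest in the 5′ part of the mRNA. The 611 bases after the stop codon stood at 26.4 RPKM in BxC and 28.1 in CxB, against 12 and 12.7 over the 654 coding bases. When each mRNA of at least 1000 bases was cut into 3 parts of equal length, the 5′ part of Cldn5 stood at 0.365 of the 3′ part in BxC and at 0.357 in CxB. The middle part was nearly level with the 3′ part, at 22.5 against 23.1 RPKM in BxC and 22.9 against 25.4 in CxB. The median over 12954 mRNAs in BxC was 1.65, and over 12936 in CxB it was 1.59, so Cldn5 lay at the 6.23rd and 5.70th percentiles, with relatively few reads at its 5′ end.

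Pecam1 (chr11:106515531-106611942, minus strand) encodes an adhesion molecule of endothelial junctions that platelets and leukocytes also carry. It stood at 3.73 RPKM in BxC and 3.40 in CxB, from 2073 and 1607 reads, a ratio of -0.13 (-0.23 to -0.04). With each distinct line counted once, the ratio was -0.24. Of the 15 introns of its main transcript, 12 were spanned by spliced reads in both libraries. The annotated upstream exon at chr11:106611457-106611942 held 0 reads in BxC, which allows up to 3, and 1 read in CxB.

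The exons for the cytoplasmic tail of Pecam1, which is known to be alternatively spliced, gave reads for more than 1 form. Exon 12, of 54 bases, was joined to exon 11 by 11 reads in BxC and 9 in CxB, and to exon 13 by 6 and 5. A junction that the annotation lacks joined exon 11 directly to exon 13 in 3 and 4 reads. Exon 14 was low at 1.09 and 0.160 RPKM, and the annotated junction that leaves out exons 14 and 15 had 2 and 3 reads, and the junction from exon 13 to exon 14 had 1 and 0. Exon 14 was joined onwards to exon 15 by 3 and 1 reads and to exon 16 by 1 and 0. The 2 joins of exon 11 are shown because they part at the skipped exon. They are read on the minus strand of the mm9 genome (NCBIM37) as RNA would be spliced, from chr11:106544194-106544208 followed by chr11:106542385-106542399 or by chr11:106540911-106540925, and the capitals mark the bases of the exon that follows exon 11.
Pecam1 exon 11 joined to exon 12: ccaacagccattacgGTTATGATGATGTTT
Pecam1 exon 11 joined to exon 13: ccaacagccattacgACCCCCAGAACATGG
The skipped exon has a length divisible by 3, so both joins keep the same reading frame after it.

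Kdr (chr5:76328852-76374483, minus strand) encodes VEGF receptor 2, the main signalling receptor for VEGF-A. It stood at 5.59 RPKM in BxC and 5.23 in CxB, from 5246 and 4180 reads, a ratio of -0.09 (-0.15 to -0.04). All 29 introns of its main transcript were spanned by spliced reads in both libraries, 850 reads in BxC and 637 in CxB. Exon 2 was the highest of its 30 exons, at 37.7 and 31.7 RPKM, against a median of 7.16 and 6.79 over the exons. The 5′ part of the mRNA stood at 1.84 and 1.67 times the 3′ part, close to the medians over all mRNAs.

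Flt1 (chr5:148373180-148537587, minus strand) encodes VEGF receptor 1, which binds VEGF-A tightly and limits what reaches Kdr. The gene makes a full-length receptor from 30 exons and a short soluble form that ends in the intron after exon 13. Over the union of exons of all its forms, 11583 bases, it stood at 2.66 RPKM in BxC and 2.55 in CxB, from 3978 and 3235 reads. The ratio between the libraries was -0.07 (-0.13 to 0.00). Kdr stood at 2.10 times this level per length in BxC (2.01 to 2.19) and at 2.06 times in CxB (1.96 to 2.15). This factor depends on the bases used for Flt1. The exons that its 2 forms share stood above Kdr, at 8.09 RPKM in BxC and 7.40 in CxB. Without exon 1 they stood below it, at 4.92 and 4.21.

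Reads of Flt1 showed both forms. Exons 1 to 13, which the forms share, stood at 8.09 RPKM in BxC and 7.40 in CxB, whereas exons 14 to 30, found only in the full-length mRNA, stood at 1.38 and 1.35. Exons 14 to 30 were at 0.170 of the level of the shared exons in BxC (0.157 to 0.185) and at 0.182 in CxB (0.167 to 0.199). These values were 0.323 and 0.310 over distinct lines, and 0.340 and 0.380 over coding bases alone. Exon 1 alone held 1156 of the 2347 shared reads in BxC and 949 of 1827 in CxB, and without it, a choice made after seeing the data, the values were 0.280 and 0.320. The step at the end of exon 13 was smaller than the spread along the shared exons: exon 12 stood at 11.1 and 9.03 RPKM, exon 13 at 4.64 and 3.57, exon 14 at 2.37 and 2.36. The 5′ part of the full-length mRNA was at 8.36 and 7.76 times the 3′ part, the 90.9th and 91.3rd percentiles of all mRNAs. A fall from the 5′ to the 3′ end was common, since 42.5% of mRNAs in BxC and 40.4% in CxB had a 5′ part at least 2-fold over the 3′ part, as 2 of the 9 genes with an mRNA of that length, Flt1 and Slc2a1, had in both libraries.

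Intron 13 of Flt1 gave a measure that does not rest on this slope. The annotated end of the short form covers 4066 bases of it (chr5:148446735-148450800), which held 834 reads in BxC and 751 in CxB, or 1.59 and 1.68 RPKM. All bases of the gene outside annotated exons stood at 0.100 and 0.0932 RPKM, so this stretch was 15.9 and 18.1 times higher. Reads that ran with at least 6 bases on each side from exon 13 into the intron numbered 19 in BxC and 18 in CxB, against 10 and 7 that were spliced from exon 13 onwards. They made up 65.5% of these reads in BxC (45.7% to 82.1%) and 72.0% in CxB (50.6% to 87.9%). At the other 28 introns of Flt1 together, 2.49% and 3.31% of such reads ran into the intron. The 2 continuations of exon 13 are shown because they decide between the receptor that spans the membrane and the soluble form. They are read on the minus strand of mm9, from chr5:148450801-148450815 followed by chr5:148446085-148446099 or by chr5:148450786-148450800, and the capitals mark what follows exon 13.
Flt1 exon 13 joined to exon 14: aagttctcgttagagATTCGGAAGCGCCAC
Flt1 exon 13 read on into intron 13: aagttctcgttagagGTGAGCACTGCGGCA
The intron begins with the letters GT of a splice donor, as all 135 introns of the main transcripts of the 10 genes did, and 92 bases of the intron are annotated as coding in the short form.

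**Figure D3:**
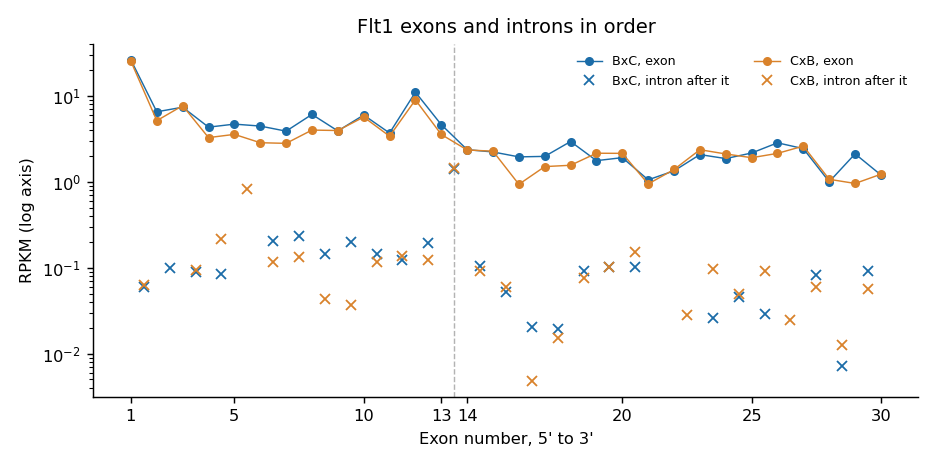
Level of each Flt1 exon (circles) and of the intron after it (crosses) in BxC (blue) and CxB (orange), in RPKM on a log axis, against exon number from 5′ to 3′. Introns without reads are not drawn; the cross at the dashed line is intron 13, at 1.41 and 1.47 RPKM, which lies within the range of the exons after it, 1.00 to 2.95 RPKM in BxC.

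Slc2a1 (chr4:118781316-118809935, plus strand) encodes the glucose transporter GLUT1, which brain endothelium carries in quantity and which other brain cells also use. It held 22206 reads in BxC and 15003 in CxB, and its ratio of -0.33 (-0.36 to -0.30), or 1.26-fold lower in CxB, was the farthest from 0 of the 10 genes. The difference was uneven along the mRNA. Exons 1 to 3, grouped after their levels were seen, had a ratio of -0.41 (-0.45 to -0.38), exons 4 to 10 of -0.20 (-0.25 to -0.15), and the last exon alone of -0.11 (-0.17 to -0.05).

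Exons 1 to 3 of Slc2a1 also carried most of its reads. They stood at 214 RPKM in BxC and 161 in CxB, 7.28 and 6.27 times the level of exons 4 to 10. The 14324 and 9154 reads there came from 713 and 596 distinct lines. The stretch from 150 to 200 bases after the 5′ end alone held 26.5% of the read depth of the mRNA in BxC and 25.3% in CxB. When each distinct line was counted once, the ratio of the whole gene was -0.07. The whole gene held 2614 distinct lines in BxC and 2114 in CxB. The 9 junctions of the main transcript were all seen in both libraries, and none of the 4 junctions to the extra exons of 2 annotated variants had a read in either, which allows up to 3 reads each. The antisense gene Gm12868 shares 105 exon bases with Slc2a1, and without them the ratio was -0.34.

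**Figure D4:**
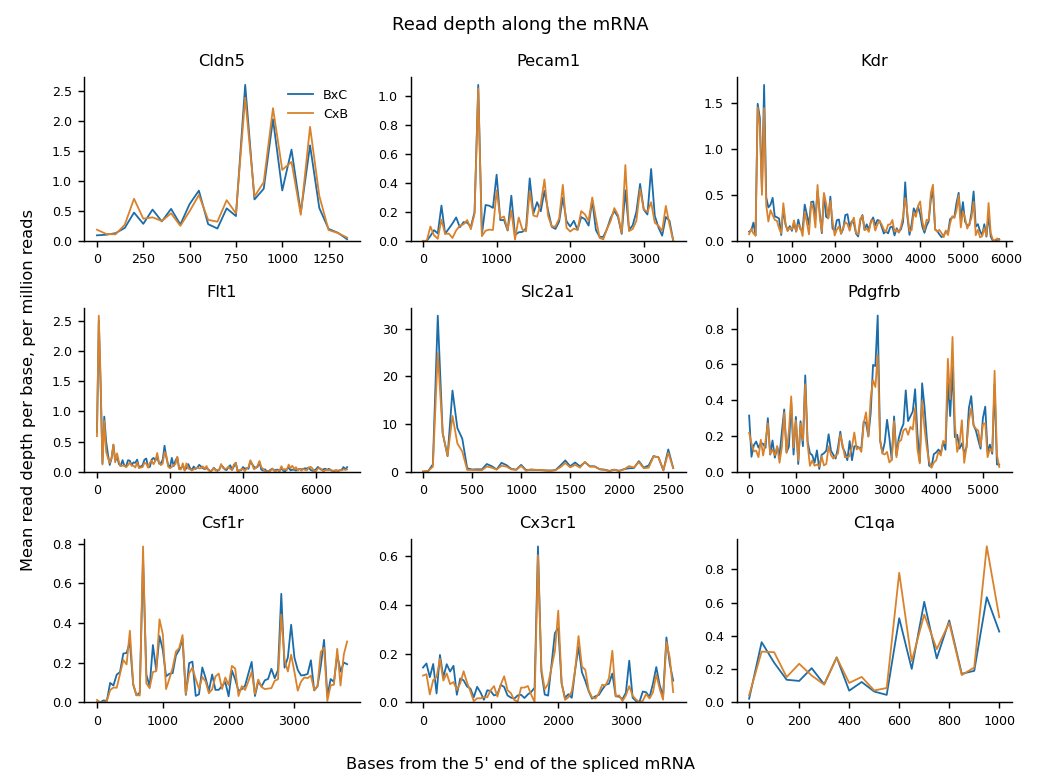
Mean read depth per base, per 1000000 reads of the library, in bins of 50 bases from the 5′ end of the spliced mRNA, for 9 of the genes in BxC (blue) and CxB (orange), each on its own linear scale from 0. The 2 libraries share the positions of most peaks; Slc2a1 reaches 32.8 and 24.9 between 150 and 200 bases, Flt1 2.51 and 2.59 between 50 and 100 bases, and Cldn5 and C1qa are shallow over their 5′ part.

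Pdgfrb (chr18:61204804-61244715, plus strand) encodes PDGF receptor beta, through which endothelial PDGF-B holds pericytes on the vessel wall. It stood at 5.68 RPKM in BxC and 5.11 in CxB, from 4010 and 3072 reads, a ratio of -0.15 (-0.22 to -0.08). Spliced reads spanned 21 of its 22 introns in both libraries. Its exons ranged from 2.21 to 19.3 RPKM in BxC and from 1.23 to 16.6 in CxB, with exon 7 lowest and exon 16 highest in both.

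Csf1r (chr18:61265226-61291803, plus strand) begins 20510 bases after the annotated end of Pdgfrb, on the same strand. It encodes the receptor for the cytokines CSF1 and IL-34, on which microglial survival depends. The gap between the 2 genes held 20 reads in BxC and 37 in CxB, or 0.00756 and 0.0164 RPKM, far below the level of either gene. Csf1r stood at 3.84 RPKM in BxC and 3.74 in CxB, from 2590 and 2147 reads, a ratio of -0.04 (-0.12 to 0.05). The exons overlap 871 bases of the antisense gene Hmgxb3, and without those bases the ratio was -0.11.

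The 2 annotated start exons of Csf1r differed widely. The upstream exon, which is known for use outside macrophages, held 1 read in BxC and 2 in CxB, or 0.0686 and 0.161 RPKM. The next exon, which holds the start used in macrophages, held 59 and 30 reads, or 2.10 and 1.3 RPKM. Of the 21 introns, 20 were spanned by spliced reads in both libraries.

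Cx3cr1 (chr9:119957811-119977400, minus strand) encodes the fractalkine receptor, by which microglia respond to the neuronal ligand Cx3cl1. It stood at 2.35 RPKM in BxC and 2.26 in CxB, from 1130 and 923 reads, a ratio of -0.06 (-0.19 to 0.07). Its single intron was spanned by 3 spliced reads in each library, and most of its 3729 bases lie in the last exon. A stretch of 50 bases that starts 1700 bases from the 5′ end held 10.1% and 9.96% of its read depth.

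Aif1 (chr17:35307936-35313013, minus strand) lay outside the 15427 genes tested, with fewer than 100 reads in each library. Its ratio of 0.01 had an interval from -0.45 to 0.46, so a difference within those bounds was not detectable at this depth. Only 3 of its 7 introns were spanned by spliced reads in both libraries. Its introns stood at 0.153 RPKM in BxC and 0.111 in CxB, or 0.336 and 0.241 of its exon level.

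C1qa (chr4:136451832-136454718, minus strand) had the highest ratio of the 10 genes, 0.23 (0.10 to 0.36), with 929 reads in BxC and 928 in CxB. It encodes the A chain of C1q, which is assembled from A, B and C chains and tags synapses for removal by microglia. The other 2 chains had ratios near 0: C1qb stood at 6.58 and 6.54 RPKM, a ratio of -0.01 (-0.15 to 0.13), and C1qc at 6.49 and 6.20, a ratio of -0.07 (-0.17 to 0.04). In BxC the 3 chains were level per length, with C1qa at 1.05 times C1qb (0.960 to 1.15) and 1.07 times C1qc (0.984 to 1.16). In CxB C1qa stood at 1.24 times C1qb (1.13 to 1.37) and 1.31 times C1qc (1.21 to 1.43). The reads of C1qa lay towards the 3′ end, where the 240 bases after the stop codon stood at 11.1 and 13.4 RPKM against 6.59 and 7.55 over the coding bases.

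Several ligands and co-receptors of these pathways were more abundant per length than the receptors. Vegfa, the main ligand of Kdr and Flt1, stood at 29.7 RPKM in BxC and 29.0 in CxB, 5.30 and 5.54 times the level of Kdr. Vegfb, a ligand of Flt1, stood at 23.1 and 22.4 RPKM, and the co-receptors Nrp1 at 18.3 and 18.4 and Nrp2 at 18.7 and 18.2. These 4 genes differed little between the libraries, with ratios from -0.05 to 0.01. Lower levels were found for Vegfc (1.2 and 1.12 RPKM), for Pgf (2.42 and 1.83) and for the lymphatic receptor Flt4 (1.05 and 1.03). The ratio of Pgf was -0.40 (-0.61 to -0.19), and -0.41 over distinct lines. Figf, which encodes VEGF-D, held 41 and 50 reads.

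Among the PDGF genes, Pdgfb, the ligand of Pdgfrb, stood at 8.10 and 7.54 RPKM, and Pdgfa at 5.26 and 6.42. The ratio of Pdgfa, 0.29 (0.20 to 0.37), was 0.03 over distinct lines. Pdgfc stood at 1.14 and 1.26 RPKM, Pdgfd at 0.724 and 0.739, and the receptor Pdgfra, a mark of oligodendrocyte precursors, at 8.85 and 7.99. Angpt2, which loosens vessels during sprouting, held 701 and 430 reads, a ratio of -0.47 (-0.65 to -0.30) that was -0.08 over distinct lines. Its counterpart Angpt1 stood at 0.937 and 0.927 RPKM.

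Of the signals to microglia, Csf1 stood at 2.85 RPKM in BxC and 2.72 in CxB. Il34 held 317 and 392 reads, a ratio of 0.54 (0.32 to 0.76), and of 0.44 over distinct lines. Csf1 was therefore 2.27 times Il34 per length in BxC (2.02 to 2.57) and 1.49 times in CxB (1.33 to 1.67). Cx3cl1 stood at 13.2 and 13.5 RPKM and Tgfb1, a cytokine needed for the microglial state, at 4.39 and 3.70. The signals Wnt7a (5.62 and 5.40 RPKM) and Wnt7b (13.8 and 13.9), which neural progenitors send to endothelium to induce the barrier, had ratios of -0.06 and 0.01. None of the 20 of 21 ligand and co-receptor genes tested was called, against 1.1% of all genes tested.

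Wider marker lists of the same cell types gave medians close to those of the 10 genes. Of 39 other endothelial genes, 37 were tested, with a median of -0.05, 17 higher and 20 lower in CxB. The rest, Slco1a4 and Ly6a, had too few reads and were higher, at 0.30 (-0.15 to 0.76) and 1.38 (0.56 to 2.24). The interval lay wholly below 0 for 15 of the 37 and wholly above 0 for 8, and 1 was called. That gene was Sox7, a transcription factor of endothelial cells, at 1.88 RPKM in BxC and 1.16 in CxB, a ratio of -0.70 (-0.87 to -0.52). It fell short of 1.5-fold over distinct lines, at -0.48, and on the strand opposite to the gene, at -0.53. The 3 highest of this list were Slc7a5, the large neutral amino acid transporter, at 33.6 and 33.4 RPKM, the junction scaffold Tjp1 at 9.53 and 10.6, and Ramp2 at 9.41 and 9.09. Of 15 other mural genes, 13 were tested, with a median of -0.11, 12 lower in CxB, and an interval wholly below 0 for 7 and wholly above 0 for none. Its highest were Vtn at 18.8 and 15.2 RPKM, Notch3 at 13.9 and 13.5 and Cd248 at 8.59 and 8.37. Over all genes tested, 0.622% were at least 1.5-fold lower in CxB and 0.473% at least 1.5-fold higher. Of all genes tested, 25.8% had an interval wholly below 0 and 25.4% wholly above 0.

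Of 28 other microglial genes, 23 were tested, with a median of -0.07, 9 higher and 14 lower in CxB. Of the 23, 1 was called, against 1.1% of all genes tested. The called gene was Itgam, which encodes the integrin chain CD11b, with 281 and 151 reads, a ratio of -0.66 (-0.96 to -0.37). It fell short of 1.5-fold over distinct lines, at -0.51. High in the list were Itgb5 at 9.19 and 10.1 RPKM and Sall1 at 8.15 and 7.44, which other cells of the embryonic brain also use. The interval lay wholly below 0 for 5 of the 23 genes and wholly above 0 for 1, against 25.8% and 25.4% of all genes tested.

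**Figure D5:**
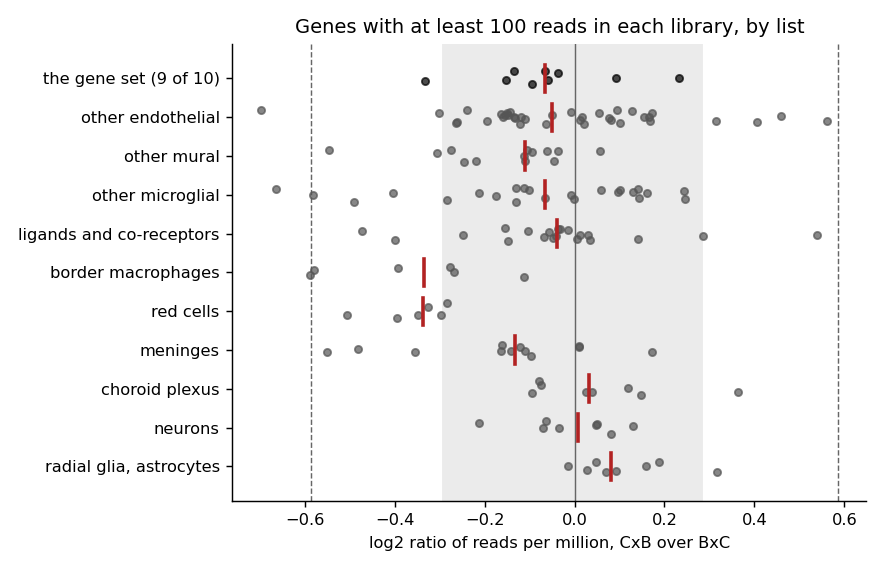
Log2 ratio of scaled reads, CxB over BxC, of every gene with at least 100 reads in each library (points), by marker list, with the list median (red bar), the 5th to 95th percentiles of all genes (grey) and 1.5-fold (dashed). The other endothelial, mural and microglial lists have medians of -0.05, -0.11 and -0.07, and the border macrophage and red cell lists of -0.33 and -0.34. Vertical scatter within a row has no meaning.

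Marker lists of other cells that a dissected brain can hold had median ratios from -0.34 to 0.08. All 6 tested of 9 genes of border macrophages, the macrophages of the meninges and vessel walls, were lower in CxB, with a median of -0.33. The summed levels of the 9 were 11.4 RPKM in BxC and 9.36 in CxB. Of those with too few reads, Cbr2 was lower, with 147 and 93 reads. Ms4a7, with 27 and 60 reads and a ratio of 1.38 (0.71 to 2.10), and Clec4n, with 2 and 4, were higher. The gene F13a1 was the only 1 of the 6 tested that was called, against 1.1% of all genes tested. It had 1079 and 611 reads, a ratio of -0.59 (-0.73 to -0.44). It fell short of 1.5-fold over distinct lines, at -0.46, a count added after seeing the data. All 6 tested of 12 red cell genes were lower, with a median of -0.34 and sums of 341 and 275 RPKM, and 9 of 12 meningeal genes were lower, with a median of -0.13 and sums of 81.2 and 70.4. Of the red cell genes, Hbb-bh1 was at 0 in both libraries and Hbb-y in CxB. The 8 choroid plexus genes had a median of 0.03, the 8 neuronal genes of 0.01 and the 8 genes of radial glia and astrocytes of 0.08. No gene of 10 for blood leukocytes reached 100 reads in both libraries, with sums of 2.23 and 2.85 RPKM, and Cd3e was at 0 in CxB. The part of these tissues in the ratios of the 10 genes was not tested.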

How the data were processed

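The deposited files are alignments of 36-base single reads, which the submitters' processing notes credit to Novoalign on mm9. Which of the alignments described in the methods was deposited is not stated. Column 4 of each line was used as the count of identical reads that the authors had collapsed to that line, without normalization, a meaning inferred from the values. Libraries were made from polyA-selected RNA. Column 4 was summed over the union of GENCODE vM1 exons wherever an aligned block overlapped it, on either strand. Exons therefore gain at their edges, short ones most for their length. Where exons were taken singly, a read spliced across them counted in each. RPKM used the total of each library. Junctions came from spliced lines, and reads across an exon end needed 6 bases on each side. Sequences were read from the NCBIM37 genome. Gene lists were matched by symbol or, for 2 of 180 genes, by a RefSeq synonym, and 1 gene was not matched.

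Intervals are exact Poisson for levels and exact conditional binomial (Clopper-Pearson) for ratios and shares. What a count of 0 allows, up to 3 reads, is a fixed bound and not 1 of these intervals. The counting was tested on simulated data. The genes named are the 10 genes, the ligands and co-receptors, the 3 highest of each vascular or microglial list and the listed genes past 1.5-fold. C1qb, C1qc, F13a1 and overlapping genes were added with values known, and so were listed genes at 0 or with too few reads to be tested. Some genes that these rules name are not reported here. The members and lists were chosen with earlier results of these data known. The alternatives were distinct lines, totals without chromosomes X and M and scaling by the median ratio over genes. Further ones were reads on the strand opposite to the gene, bases of no other gene, and other thresholds. For Flt1 they were also coding bases and leaving out exon 1, the last added after seeing the data. The authors' list of imprinted genes was not used here, and alleles were not separated, since the alignments hold no bases. Python 3.11.15, NumPy 2.4.6, pandas 2.3.3, SciPy 1.17.1, pyarrow 21.0.0 and Matplotlib 3.10.9 were used.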

Additional observations from a re-analysis of the deposited data

Results flagged for a closer look

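A spliced junction in Pdgfrb (chr18:61227874-61228398) that the annotation lacks was seen in both libraries, with 10 reads in BxC and 4 in CxB. It drew attention because it is not among the annotated junctions that were counted. Its reads lie within annotated exons and so are part of the level of the gene. It uses the donor of intron 9 and an acceptor 3 bases after the annotated one, whose junction had 2 and 3 reads, and the intron starts with GT and ends with AG. The other unannotated junctions seen in both libraries were limited to the Pecam1 junction described above.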

How the results depend on the processing

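Under 5 alternative ways of counting or scaling, no gene of the set changed the sign of its ratio or reached 1.5-fold, and the endothelial median stayed between -0.10 and -0.07. The median of the 4 microglial genes was close to 0 throughout, at -0.01 with all 4 counted, with alternatives from -0.03 to 0.05. At a lower threshold, 0.32 on the log2 scale, 1 gene of the set was called, Slc2a1, as were 7.69% of all genes tested. With a minimum of 10 reads, 7.74% of all genes passed 1.5-fold, and with 500 reads 0.267% did. The Flt1 value of full-length over shared exons was 0.323 in BxC and 0.310 in CxB over distinct lines. It was 0.340 and 0.380 over coding bases, and 0.280 and 0.320 without exon 1. Over distinct lines the share of the set on the strand opposite to the gene moved from 54.8% to 51.7% in BxC and from 55.4% to 52.3% in CxB. The cause of these moves was not tested. Counting distinct lines moved 15 of 42 ratios outside their counting intervals. Sox7 and Itgam fell short of 1.5-fold under at least 1 alternative, as given above. No paired analysis was possible because each cross has 1 library and no result came from a test. Depth limits Aif1 and single junctions most, and reads per distinct line ranged from 1.33 in Aif1 to 8.50 in Slc2a1.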

Other observations

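Strand was kept unevenly across genes. Of the reads of the adult globin genes Hba-a1 and Hbb-b1, 88.9% and 90.0% lay on the strand opposite to the gene in BxC, and 85.5% and 89.7% in CxB, against a median of 56.0% and 56.7% over all genes with at least 100 reads. The microglial gene Gpr34, on chromosome X, held 38 reads in BxC and 132 in CxB and so stayed outside the genes tested, and the border macrophage gene Ms4a7 held 27 and 60.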
